A study of Mus musculus with 7 samples.

Results

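The small leucine-rich proteoglycans were examined as 10 genes, *Lum*, *Dcn*, *Bgn*, *Fmod*, *Ogn*, *Prelp*, *Epyc*, *Omd*, *Aspn* and *Podn*, found by symbol among the 47729 gene identifiers of the deposited table. All 10 were present once and all 10 were among the 19188 genes that passed the filter on low counts. RNA came from mouse aorta, in 4 libraries of wild-type mice (WT) and 3 libraries of Mmp19-/- mice (KO), which lack the matrix metalloproteinase gene *Mmp19* by their label. The labels name no treatment. Age, sex, strain, how the allele was made and which cells lack it are not stated in the sources used here. Nothing says that the libraries are from different animals, and p-values then cover only the spread between these 7 libraries, which may be technical.

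These proteoglycans are secreted proteins built around a curved stack of leucine-rich repeats, which binds collagen fibrils and sets their diameter and spacing. Some carry chondroitin or dermatan sulfate chains (biglycan, decorin), some keratan sulfate (lumican, fibromodulin), and asporin carries none. Several also bind growth factors such as TGF-β. In arteries, biglycan and decorin are the best known members, and loss of biglycan causes an inherited thoracic aortic aneurysm syndrome in humans. Several of the genes lie next to each other in clusters, which come from duplications of an ancestral gene. The series title links MMP19 of smooth muscle cells to thoracic aortic aneurysm through aggrecan, a large proteoglycan of another family.

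Estimated counts summed to between 68151472 and 76926790 per library. The part of counting error in the spread of low genes was not tested. Values are given as CPM, counts scaled to library size with edgeR's TMM factors. The targeted gene did not separate the groups: *Mmp19* read 24.8, 24.8, 20.7 and 34.7 CPM in WT replicates 1 to 4 and 25.5, 11.95 and 15.9 CPM in KO replicates 1 to 3 (edgeR, adjusted p = 0.368). A total per gene cannot tell a deleted exon from an intact one, so KO means a library labelled knockout. Smooth muscle markers, which define the aortic wall, were all present: none of the 10 was at 0, and their sum was 19176 to 21195 CPM in WT and 3777, 14454 and 7626 CPM in KO replicates 1, 2 and 3. Heart muscle markers summed to 93.3 to 169 CPM in WT and 851, 1481 and 37.9 CPM in the KO libraries, and skeletal muscle markers to 7.14 to 11.8 CPM in WT and 27.8, 21.9 and 202 CPM in KO. The WT and KO sums overlapped for markers of adipocytes (4769 to 8314 and 3880 to 8545 CPM), tendon (76.1 to 281 and 108 to 143), nerve (40.7 to 348 and 53.1 to 145), mesothelium (31.6 to 83.5 and 47.3 to 131) and lymphocytes (9.63 to 94.9 and 15.6 to 30.6).

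Lumican, epiphycan and asporin transcripts were higher in every KO library than in any WT library. Biglycan and decorin, the members with the highest mean CPM in both groups, and fibromodulin overlapped between the groups. Osteoglycin, osteomodulin and PRELP were lower in KO replicates 1 and 3 and inside the WT range in KO replicate 2. No member passed edgeR's quasi-likelihood test with Benjamini-Hochberg adjustment over all genes at 0.05, against 0.0156% of all tested genes. At an unadjusted p under 0.05, edgeR had 3 of 10 higher and 0 lower, where 9.92% of all genes were higher and 7.27% lower. The members were chosen with earlier results of these data known, so counts set beside such shares describe them and do not test the family. The median log2 fold change of the 10 was -0.16, with 4 positive, beside -0.03 and 46.9% positive over all tested genes. DESeq2 called *Lum* and *Epyc* higher, against 5.54% of its genes, and 0 members lower, against 2.79%. Limma-voom with sample quality weights called 0 members, against 0.0365% of genes.

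**Figure D1:**
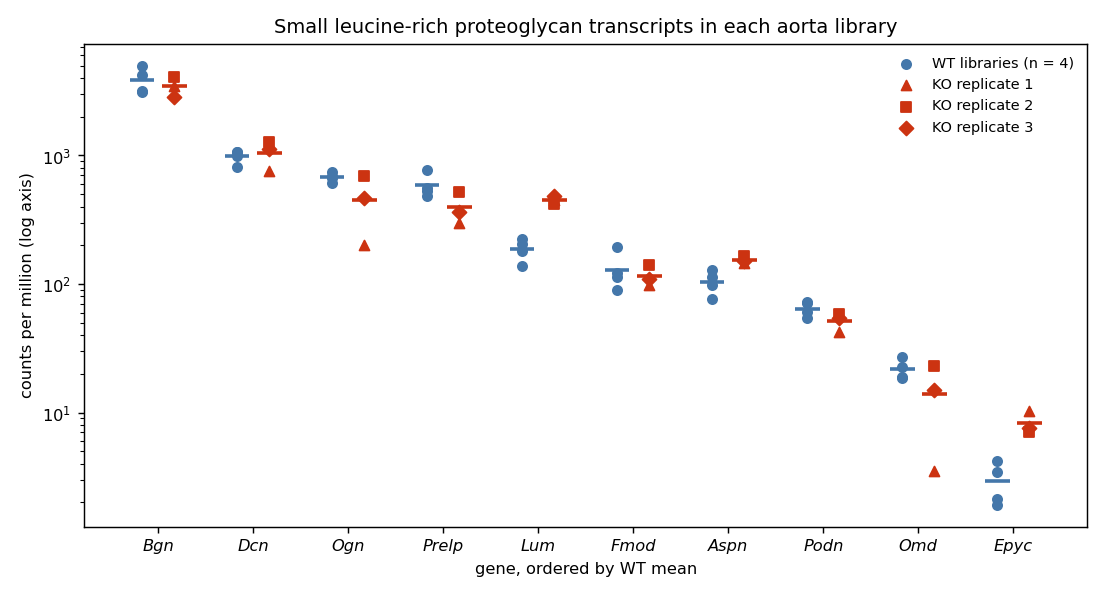
CPM (log axis, not corrected for transcript length) of the 10 genes in each library, with WT libraries as blue circles, KO replicates 1, 2 and 3 as red triangles, squares and diamonds, and bars at the group means (n = 4 and 3). The red points of Lum, Epyc and Aspn all sit above the blue ones, and those of Ogn and Omd spread widely, from 199 to 697 CPM and from 3.54 to 23.0 CPM.

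Corrected for length, biglycan was the most abundant member in both groups. The CPM were divided by the length of the longest principal transcript in GENCODE, or, as an alternative chosen after seeing the data, by the merged exons of all annotated transcripts. Biglycan's share of the summed CPM per kilobase was 48.4% to 62.1% over the 7 libraries with the principal transcripts and 37.0% to 49.8% with the merged exons. In WT, the order of levels per kilobase was *Bgn* (1599 ± 367 CPM per kb, SD, n = 4), *Dcn* (561 ± 66.4), *Ogn* (263 ± 21.5), *Prelp* (162 ± 35.03), *Lum* (76.5 ± 15.2), *Aspn* (44.6 ± 9.53), *Fmod* (41.5 ± 14.5), *Podn* (20.3 ± 2.72), *Omd* (9.67 ± 1.75) and *Epyc* (1.15 ± 0.428). Of neighbours in this order, the WT libraries of *Aspn* and *Fmod* overlapped, and those of all others did not. In KO, *Lum* stood next after *Bgn* and *Dcn* at 184.5 ± 13.2 CPM per kb (SD, n = 3), where its libraries overlapped those of *Ogn* (177 ± 97.0). *Ogn* also overlapped *Prelp* in KO (109 ± 31.2), and *Omd* (6.18 ± 4.36) overlapped *Epyc* (3.27 ± 0.673). With the merged exons as the length, *Ogn* stood above *Dcn* in WT and *Lum* above *Dcn* in KO, where their libraries overlapped, since the annotation gives *Dcn* 5838 exonic bases against 1758 in its principal transcript.

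**Figure D2:**
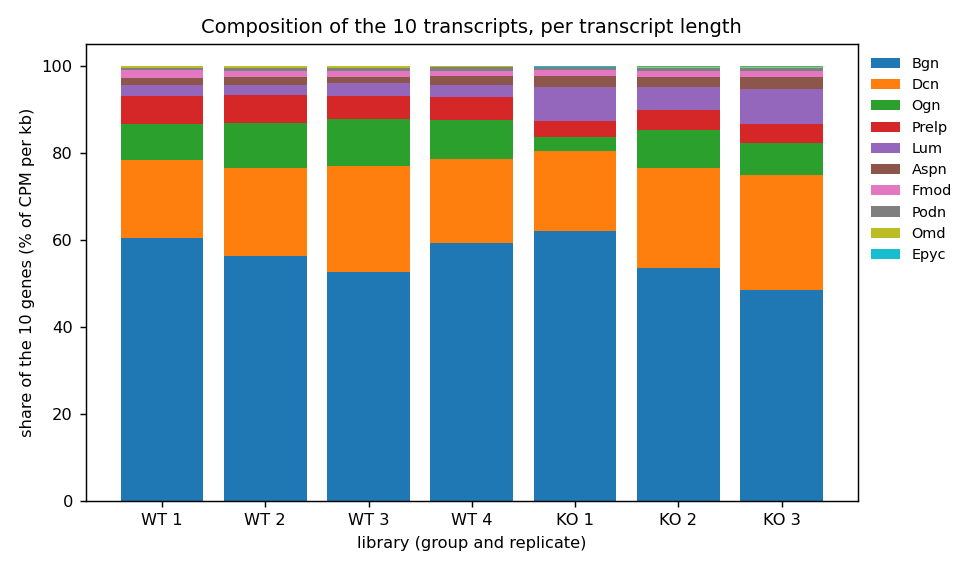
Share of each gene in the summed CPM per kilobase of the 10, with principal transcript lengths, one bar per library. Bgn takes 48.4% to 62.1% of every bar, and the segment of Lum is 2.48% to 2.94% in the WT bars and 5.47% to 8.19% in the KO bars.

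The share of lumican in this mixture was 2.75% ± 0.204 in WT and 7.17% ± 1.48 in KO (SD, n = 4 and 3), and the libraries of the groups did not overlap. With merged exon lengths it was 5.39% ± 0.438 and 14.1% ± 2.97, again without overlap. With principal transcripts, the share of osteoglycin was 9.61% ± 1.12 and 6.48% ± 2.78. The summed CPM of the 10 genes overlapped, at 8174, 5465, 5882 and 6982 in WT and 5495, 7393 and 5623 in KO.

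Lumican, which spaces collagen fibrils and is best known from the transparent cornea, had the smallest p of the members. *Lum* (chromosome 10, 97565128 to 97572703, plus strand, GRCm38) read 225, 139, 180 and 205 CPM in WT replicates 1 to 4, and 447, 422 and 486 CPM in KO replicates 1 to 3. Every KO library stood far above the highest WT library, and the KO libraries lay close together. The log2 fold change was 1.27 (SE 0.18), a 2.41-fold higher level, with an edgeR adjusted p of 0.165. The exact permutation p over all 35 assignments of the libraries was 0.0286, 2-sided, the smallest that 7 libraries can give. DESeq2 gave an adjusted p of 2.42e-07 and limma-voom 0.0695. Leaving out 1 library moved the log2 fold change between 1.19 and 1.40, and without KO replicate 2 edgeR called *Lum* (adjusted p = 0.0262), as it did 3.34% of the genes in that fit.

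The KO libraries that agreed on lumican differed widely in cell markers. The log2 deviation of *Lum* from the WT mean was 1.28, 1.19 and 1.40 in KO replicates 1, 2 and 3. The median deviation of the 10 macrophage markers was 2.77, 0.80 and 1.80, that of the 10 smooth muscle markers -2.22, -0.45 and -1.37, and that of the 10 adventitial fibroblast markers -0.68, -0.16 and -0.36. Of these lists 10 of 10, 0 of 10 and 3 of 10 genes had a positive log2 fold change, and no gene was at 0 in all libraries. In bulk tissue, fewer cells of a type and less RNA per cell cannot be told apart. The part of such cells in the levels of *Lum* was not tested.

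**Figure D3:**
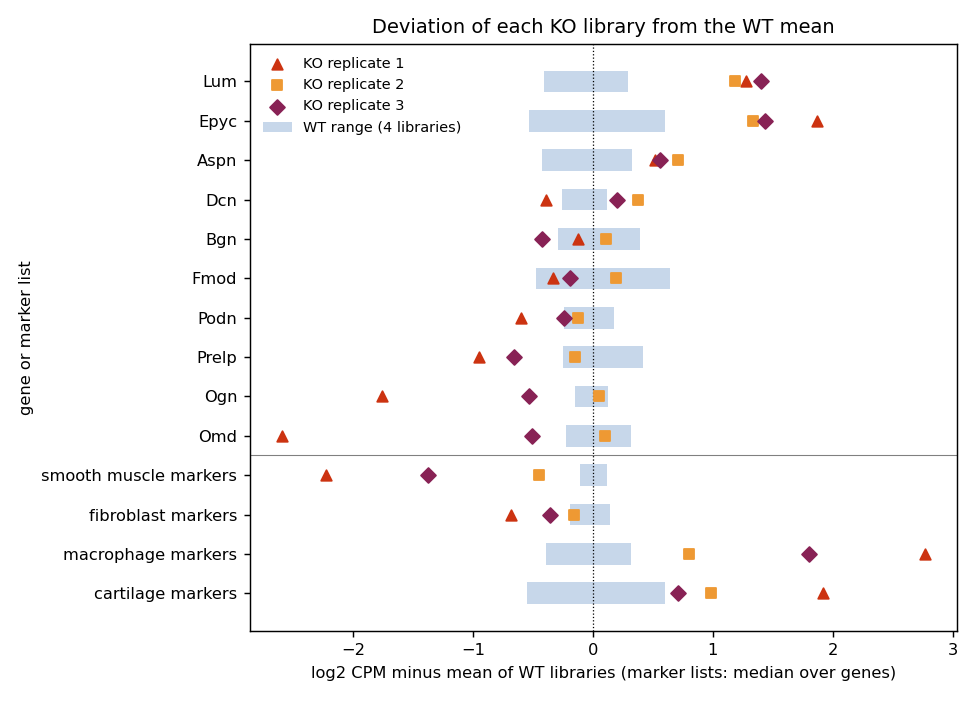
Deviation of log2 CPM from the WT mean for each gene and, under the line, the median deviation of 4 marker lists; symbols are KO replicates 1, 2 and 3 and pale bars span the 4 WT libraries. The symbols of Lum lie together between 1.19 and 1.40, while those of Omd run from -2.59 to 0.10 in the order of the smooth muscle markers.

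Among 13501 genes with a mean of at least 2 CPM, those nearest to *Lum* by the root mean square difference of log2 deviations over the 7 libraries were *Vcam1* (0.143), *Arsj* (0.147), *Ankrd33b* (0.17), *C1qtnf5* (0.194) and *Zfp57* (0.236). *Vcam1*, an adhesion molecule for leukocytes, read 59.8, 42.9, 55.9 and 66.9 CPM in WT and 138, 103 and 150 CPM in KO. *C1qtnf5*, a secreted protein of the C1q and TNF superfamily, read 17.9, 13.7, 13.6 and 17.6 CPM in WT and 32.8, 30.7 and 33.4 CPM in KO. They were picked for this likeness, so it is a description.

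Epiphycan, a proteoglycan of growth-plate cartilage, had the lowest mean level of the members in both groups and, with all 7 libraries, the largest log2 fold change. In KO replicate 1 alone, *Omd* was lower than *Epyc*. *Epyc* (chromosome 10, 97644068 to 97682454, plus strand) read 3.43, 4.21, 2.14 and 1.91 CPM in WT and 10.2, 7.08 and 7.55 CPM in KO. The groups did not overlap, and KO replicate 1 was highest. The log2 fold change was 1.5 (SE 0.33, edgeR adjusted p = 0.166, exact permutation p = 0.0286, 2-sided), and DESeq2 gave an adjusted p of 0.000871. A list of 13 cartilage markers was also highest in KO replicate 1: it summed to 54.5 to 128 CPM in WT and to 459, 213 and 226 CPM in KO replicates 1, 2 and 3. Of its 12 tested genes 10 had a positive log2 fold change and edgeR called 1, beside 46.9% and 0.0156% of all tested genes. Among these markers *Col9a2*, *Matn1* and *Snorc* stayed below 1 CPM in every library. The part of cartilage-like cells in *Epyc* was not tested.

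Asporin, which has an aspartate-rich stretch in place of a sugar chain and binds collagen and TGF-β, was the other member without overlap. *Aspn* (chromosome 13, 49544443 to 49567565, plus strand) read 112, 98.2, 76.1 and 128 CPM in WT and 146, 166 and 151 CPM in KO. The lowest KO library was only slightly above the highest WT library. The log2 fold change was 0.57 (SE 0.18, edgeR adjusted p = 0.20, exact permutation p = 0.0571, 2-sided). DESeq2's adjusted p was 0.0527, and 0.0492 when its filter was set for a threshold of 0.05, where *Aspn* joined the 6.04% of genes called higher. In all, 3 of the 10 members had every KO library above every WT library, against 8.17% of tested genes. For 0 members was every KO library below, against 8.56%. The choice of members with earlier results known makes this, too, a description.

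**Figure D4:**
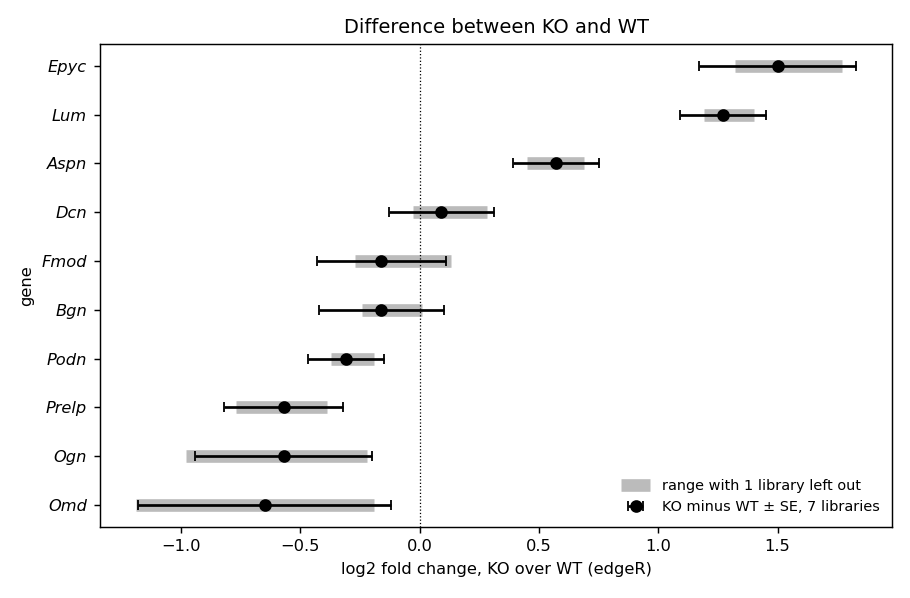
Log2 fold change of KO over WT with its standard error (black, edgeR, 7 libraries) and the range when 1 library is left out (grey). Epyc, Lum and Aspn stay above 0 throughout, while the grey ranges of Dcn, Fmod and Bgn cross 0 and those of Ogn and Omd are the widest, from -0.98 to -0.22 and from -1.19 to -0.19.

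Biglycan and decorin, close relatives that carry chondroitin or dermatan sulfate, showed no difference beyond the spread between libraries. *Bgn* (chromosome X, 73483602 to 73495933, plus strand) read 4973, 3114, 3187 and 4203 CPM in WT and 3498, 4083 and 2840.4 CPM in KO (log2 fold change -0.16, SE 0.26, edgeR adjusted p = 0.798). *Dcn* (chromosome 10, 97479609 to 97518143, plus strand) read 1061, 818, 1068 and 998 CPM in WT and 751, 1276 and 1129.6 CPM in KO (log2 fold change 0.09, SE 0.22, edgeR adjusted p = 0.861). KO replicate 1 was the lowest library for decorin and KO replicate 2 the highest, so the KO libraries spanned more than the WT range. *Fmod* (chromosome 1, 134037254 to 134048277, plus strand) encodes fibromodulin, which guides collagen cross-linking in tendon. It read 194, 89.5, 114 and 121 CPM in WT and 99.0, 141 and 109 CPM in KO (log2 fold change -0.16, SE 0.27, edgeR adjusted p = 0.802). WT replicate 1 was the highest library for both *Bgn* and *Fmod*, and without it their log2 fold changes were 0.014 and 0.127.

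Osteoglycin and osteomodulin, neighbours on chromosome 13 named for their presence in bone, varied most among the KO libraries. *Ogn* (49608046 to 49624501, plus strand) read 739, 606, 692 and 667 CPM in WT and 199, 697 and 466 CPM in KO. KO replicate 2 lay inside the narrow WT range and the other KO libraries below it. *Omd* (49582462 to 49592822, plus strand) read 26.9, 18.5, 18.9 and 22.7 CPM in WT and 3.54, 23.0 and 15.1 CPM in KO, in the same order of libraries. Their log2 fold changes were -0.57 (SE 0.37, edgeR adjusted p = 0.473) and -0.65 (SE 0.53, edgeR adjusted p = 0.573). Without KO replicate 1 they were -0.22 and -0.19, and without KO replicate 2 they were -0.98 and -1.19 (edgeR adjusted p = 0.142 and 0.261). Smooth muscle markers were lowest in KO replicate 1 and highest of the KO libraries in KO replicate 2, at 3777, 14454 and 7626 CPM, and fibroblast markers ran in the same order, at 2067, 3457 and 3016 CPM against 3423 to 4062 CPM in WT. Endothelial markers were at 1022, 1706 and 1699 CPM against 1656 to 1784 CPM in WT, and none of the 10 was at 0. The part of these cell types in *Ogn* and *Omd* was not tested.

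PRELP, which links basement membranes to collagen, and podocan followed the same order of KO libraries with smaller differences between them. This order is not particular to the lower members: *Dcn*, *Fmod* and *Aspn* had it too, and *Aspn* was higher in KO. *Prelp* (chromosome 1, 133910304 to 133921414, minus strand) read 769, 525, 484 and 563 CPM in WT and 299, 519 and 365 CPM in KO (log2 fold change -0.57, SE 0.25, edgeR adjusted p = 0.293, exact permutation p = 0.0571, 2-sided). KO replicates 1 and 3 were below all WT libraries. *Podn* (chromosome 4, 108014791 to 108096445, minus strand) read 70.7, 53.9, 60.3 and 72.0 CPM in WT and 42.2, 58.7 and 54.1 CPM in KO (log2 fold change -0.31, SE 0.16, edgeR adjusted p = 0.357). The groups overlapped for podocan.

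Within the cluster on chromosome 13, *Aspn* had the opposite sign to its neighbours. On chromosome 10, *Dcn*, *Lum*, *Kera* and *Epyc* lie on the plus strand within 203 kb, and the log2 fold change was 0.09 for *Dcn* (-0.025 without KO replicate 2), 1.27 for *Lum* and 1.5 for *Epyc*. *Kera*, which encodes the corneal keratocan and lies between *Lum* and *Epyc*, was at 0.514 CPM or less in every library and is given no fold change. On chromosome 13, *Ecm2*, *Aspn*, *Omd* and *Ogn* lie on the plus strand within 120.0 kb. Here *Aspn* had a log2 fold change of 0.57, while *Ecm2* on one side had -1.09 and *Omd* on the other -0.65. Their edgeR adjusted p were 0.20, 0.255 and 0.573, so none passed 0.05. Without KO replicate 1, *Omd* had -0.19 and *Ecm2* -0.70. On chromosome 1, *Optc* and *Prelp* lie 2.3 kb apart on the minus strand and had log2 fold changes of -1.75 and -0.57, and *Fmod*, 116 kb further on, had -0.16 (0.127 without WT replicate 1).

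**Figure D5:**
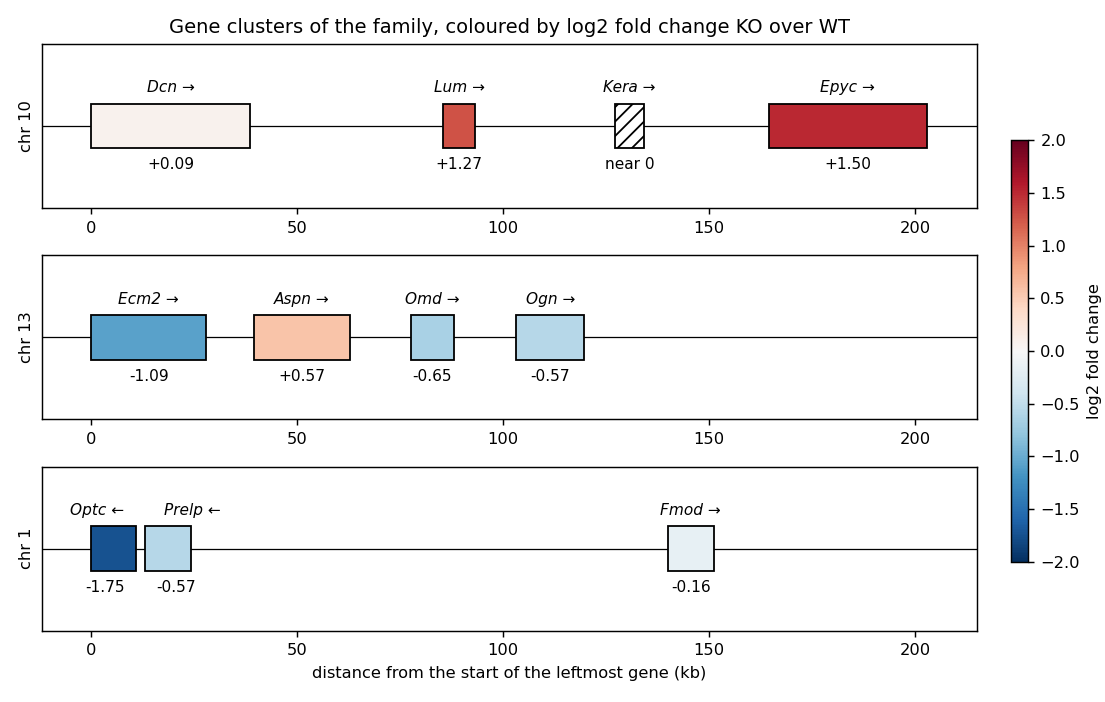
Gene positions in the clusters on chromosomes 10, 13 and 1, with distance in kilobases from the leftmost gene on the x axis, arrows for the strand, and the edgeR log2 fold change of KO over WT as colour and number. The chromosome 13 cluster holds 1 red gene among blue ones, where Aspn (0.57) lies between Ecm2 (-1.09) and Omd (-0.65); Kera is hatched because it was near 0.

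Ratios of genes within a library do not depend on scaling between libraries, and 4 were compared. The log2 ratio of *Lum* to *Dcn* counts was -2.24, -2.56, -2.57 and -2.28 in WT and -0.75, -1.60 and -1.22 in KO. The groups did not overlap, and the ratio was 2.34-fold higher in KO (log2 difference 1.23, exact permutation p = 0.0286, 2-sided, adjusted over the 4 ratios p = 0.0571). The log2 ratio of *Ogn* to *Aspn* was 2.72, 2.63, 3.18 and 2.38 in WT and 0.45, 2.07 and 1.63 in KO, again without overlap (log2 difference -1.34, exact permutation p = 0.0286, adjusted p = 0.0571), and the difference was -0.88 without KO replicate 1. For *Fmod* to *Prelp* the log2 difference was 0.47 (exact permutation p = 0.0571, adjusted p = 0.0762). The ratio of *Bgn* to *Dcn* overlapped between the groups, with a log2 difference of -0.21 (exact permutation p = 0.486, adjusted p = 0.486). No ratio passed 0.05 after adjustment. The members in these ratios were chosen with earlier results of these data known, so the p-values, too, are a description.

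The stretches before the starts of the chromosome 13 neighbours are shown because their log2 fold changes, none past the threshold, differed in sign. That of *Epyc*, the member with the largest log2 fold change, is shown with them. RefSeq entries on GRCm38.p6 were found for 8 of the 10 members, and *Lum* and *Dcn* had none. Each sequence gives the 250 bases before the RefSeq start, 5′ to 3′ on the plus strand, with matches to TATAAA on either strand in capitals. The windows are chr13:49544193-49544442 (*Aspn*), chr13:49582212-49582461 (*Omd*), chr13:49607765-49608014 (*Ogn*) and chr10:97643818-97644067 (*Epyc*, the entry that begins at the annotated gene start).
Aspn: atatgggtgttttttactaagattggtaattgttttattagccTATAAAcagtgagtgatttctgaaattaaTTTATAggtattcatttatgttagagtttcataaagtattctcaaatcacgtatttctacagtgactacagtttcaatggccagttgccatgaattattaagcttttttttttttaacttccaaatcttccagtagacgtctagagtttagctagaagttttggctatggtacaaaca
Omd: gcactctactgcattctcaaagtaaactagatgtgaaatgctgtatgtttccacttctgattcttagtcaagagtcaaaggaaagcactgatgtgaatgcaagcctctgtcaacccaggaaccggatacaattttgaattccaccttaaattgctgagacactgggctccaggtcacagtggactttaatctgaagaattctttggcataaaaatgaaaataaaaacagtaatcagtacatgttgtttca
Ogn: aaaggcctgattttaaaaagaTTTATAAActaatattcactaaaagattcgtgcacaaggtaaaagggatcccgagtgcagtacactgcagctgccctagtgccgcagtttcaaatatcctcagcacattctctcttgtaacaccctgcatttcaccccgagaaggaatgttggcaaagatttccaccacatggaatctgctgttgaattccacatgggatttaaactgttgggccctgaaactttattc
Epyc: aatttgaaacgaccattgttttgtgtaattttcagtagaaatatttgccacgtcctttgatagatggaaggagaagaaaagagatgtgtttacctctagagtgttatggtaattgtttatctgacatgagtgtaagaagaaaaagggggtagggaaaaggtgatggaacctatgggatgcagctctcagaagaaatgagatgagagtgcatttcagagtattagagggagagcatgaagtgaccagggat

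*Aspn* held TATAAA at bases 207 to 202 before the start, and on the other strand at 178 to 173. *Ogn* held overlapping matches on both strands at bases 229 to 224 and 227 to 222. *Omd* and *Epyc* held none, and 12.3% of 32536 promoter windows of this length held at least 1. The AP-1 motif TGANTCA (6.73% of windows) and the CArG box bound by serum response factor (1.48% of windows), searched on both strands, had no match in the windows of the 8 members. The share of G and C was 30% for *Aspn*, 38.4% for *Omd*, 42% for *Ogn* and 39.2% for *Epyc*. A match is a description of the letters, and so is its absence.

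Among 8 other genes of the family, opticin, *Ecm2* and *Nyx* stood lower in every KO library than in any WT library. *Nyx* was low in both groups, at 1.22 to 2.44 CPM in WT and 0.685 to 0.958 CPM in KO (edgeR adjusted p = 0.201). All 8 were tested, and edgeR called 0. At an unadjusted p under 0.05 there were 0 higher and 3 lower, where 9.92% of all genes were higher and 7.27% lower. DESeq2 called 0 higher, against 5.54% of its genes, and 2 lower (*Optc* and *Nyx*), against 2.79%. The median log2 fold change was -0.67. In 3 of the 8 every KO library was below every WT library, against 8.56% of all tested genes. These genes, too, were listed with earlier results of these data known. *Optc*, the opticin of the vitreous body, read 66.2, 55.6, 58.5 and 58.4 CPM in WT and 5.37, 30.7 and 17.4 CPM in KO (log2 fold change -1.75, SE 0.50, edgeR adjusted p = 0.186, DESeq2 adjusted p = 0.00646). Without KO replicate 2, edgeR called it lower (adjusted p = 0.0425), as it did 1.81% of genes in that fit. *Ecm2*, a relative of decorin, read 242, 211, 213 and 246 CPM in WT and 41.1, 176 and 104 CPM in KO (log2 fold change -1.09, SE 0.42, edgeR adjusted p = 0.255), and *Chadl*, a relative of chondroadherin, averaged 6.18 ± 1.49 and 3.62 ± 1.72 CPM (SD, n = 4 and 3; edgeR adjusted p = 0.345). For *Optc*, *Ecm2* and *Chadl*, KO replicate 1 was lowest and KO replicate 2 highest of the KO libraries. The same held for *Ogn* and *Omd*, and also for *Dcn*, *Fmod* and *Aspn*, which did not stand lower as these did.

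A list of collagens and lysyl oxidases showed a median of 0.38 on the log2 scale across 19 tested genes, beside -0.03 over all tested genes. Of the 19, 13 were positive, beside 46.9% of all tested genes. This list, too, was chosen with earlier results of these data known, so its counts are a description. EdgeR called 0 of them. At an unadjusted p under 0.05, 5 were higher and 1 lower, where 9.92% of all genes were higher and 7.27% lower. DESeq2 called 4 higher and 0 lower, against 5.54% and 2.79% of its genes. *Lox*, which cross-links collagen and elastin, averaged 534 ± 165 CPM in WT and 1110.04 ± 261 CPM in KO without overlap (log2 fold change 1.06, SE 0.27, edgeR adjusted p = 0.175). The cartilage-type fibril chains *Col2a1* (0.831 ± 0.533 and 14.1 ± 11.6 CPM) and *Col11a1* (3.49 ± 3.17 and 56.9 ± 53.8 CPM) had edgeR adjusted p of 0.165 and 0.17. They were highest in KO replicate 1, unlike *Lum*.

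Enzymes that build the sugar chains showed no common direction. For chondroitin and dermatan sulfate, 11 of 22 tested genes were positive, the median log2 fold change was 0.00, and edgeR called 0. At an unadjusted p under 0.05, 2 were higher and 2 lower, where 9.92% of all genes were higher and 7.27% lower. DESeq2 called 2 higher and 0 lower, against 5.54% and 2.79% of its genes. *Dse*, the epimerase that turns chondroitin into dermatan sulfate, averaged 42.1 ± 8.33 CPM in WT and 78.9 ± 28.0 CPM in KO (edgeR adjusted p = 0.181). *Chst11*, a 4-O sulfotransferase, averaged 29.8 ± 7.34 and 57.2 ± 19.6 CPM (edgeR adjusted p = 0.189), and *Chst3*, a 6-O sulfotransferase, 58.7 ± 12.7 and 30.1 ± 14.2 CPM (edgeR adjusted p = 0.215). The libraries of the groups overlapped for *Chst11* and *Chst3*, and did not for *Dse*. For keratan sulfate, the chain type of lumican and fibromodulin, 8 of 9 listed genes were tested. The median was 0.17, beside -0.03 over all tested genes, and edgeR called 0. At an unadjusted p under 0.05, 1 was higher, against 9.92% of all genes, and 0 lower, against 7.27%. DESeq2 called 1 higher, against 5.54% of its genes, and 0 lower, against 2.79%. The gene at an unadjusted p under 0.05 had a mean below 2 CPM, and none of the 3 genes named next was among these calls. *B4galt1*, a galactosyltransferase, averaged 119 ± 23.3 and 166 ± 48.3 CPM (edgeR adjusted p = 0.339). The sulfotransferases *Chst1* and *Chst2* averaged 16.7 ± 7.38 and 12.6 ± 2.38 CPM, and 11.5 ± 1.98 and 13.7 ± 6.74 CPM. *B4galt1*, *Chst1* and *Chst2* all overlapped between the groups.

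No source used here states the strand setting of the counting, so reads of overlapping genes cannot be told apart. *Cenpp*, on the other strand, spans *Aspn*, *Omd* and *Ogn*, shares exonic bases with *Aspn*, and had 47 to 179 counts per library. An antisense gene that shares exonic bases with *Prelp* had 15 to 39 counts. *Scp2* overlaps *Podn* on the same strand without shared exonic bases and had 14532 to 29530 counts.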

How the data were processed

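Per the labels' protocols, Trizol was used to extract aortic RNA, and the sequencing libraries came from a SMARTER mRNA-Seq kit. What the authors deposited is a single gene table with an estimated count for each of 7 libraries. The submitters' processing notes name the builds GRCm38 and mm10. The aligner, counting tool, annotation and strand setting are not given in any source used here. The counts were whole numbers, so rounding left them as deposited. Low values pile up at multiples of 4, so a count may not be 1 read.

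The members and lists were chosen with earlier results of these data known. Symbols came from a table of gene names (47224 of 47729 identifiers), and positions and lengths from GENCODE M21. KO was compared with WT in R 4.3.3 with edgeR 4.0.16 (filterByExpr, TMM, glmQLFit and glmQLFTest, no covariates), with Benjamini-Hochberg adjustment over 19188 genes. Standard errors match the quasi-likelihood F statistic. Permutation tests used all 35 assignments of the libraries, on mean log2 CPM with a prior count of 2, or on log2 ratios of counts plus 0.5. The procedure was also run on simulated data in which 200 genes were changed, with the outcome not reported here. Each simulated gene varied on its own, so the run does not cover libraries that differ as a whole.

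Named were all members, *Mmp19*, the 3 genes with the smallest p and a mean of 2 CPM or more from each pathway list, and the 5 genes nearest to *Lum*. *Nyx*, *Kera* and the marker genes below 1 CPM fall outside this rule and were chosen once their values were known. Markers of 12 cell types were listed. Alternatives were other scalings and filters, DESeq2 1.42.0, limma-voom (limma 3.58.1), omission of each library in turn, and a block for the replicate number. Chosen after seeing the data were the quasi-likelihood fit with legacy=FALSE, counts divided by 4, DESeq2 filtered for 0.05, and merged exon lengths.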

Additional observations from a re-analysis of the deposited data

How the results depend on the processing

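Over all genes, edgeR's 3 higher calls became 0 without a low-count filter, 7 with a filter of 50 counts in 3 libraries, 1022 with DESeq2 and 7 with limma-voom. They became 5 with the quasi-likelihood fit with legacy=FALSE, 7 with counts divided by 4, and 1017 with DESeq2 filtered for 0.05, and ran from 0 to 667 (without KO replicate 2) when 1 library was left out. The 0 lower calls became 514 with DESeq2, 531 with DESeq2 filtered for 0.05, and 0 to 362 (without KO replicate 2) when 1 library was left out. Among the members, the 0 higher calls became 2 with DESeq2, 3 with DESeq2 filtered for 0.05, and 0 to 1 when 1 library was left out, the 1 being *Lum* without KO replicate 2. The cause of these changes was not tested. Members called lower stayed at 0 under all alternatives run. When 1 library was left out the log2 fold change ran from -0.025 (without KO replicate 2) to 0.28 for *Dcn*, from -0.238 to 0.014 (without WT replicate 1) for *Bgn*, and from -0.269 to 0.127 (without WT replicate 1) for *Fmod*, so that each reversed once. The other 7 members kept their sign under all alternatives run, with *Lum* between 1.19 and 1.40, *Ogn* between -0.98 and -0.22 and *Omd* between -1.19 and -0.20. With the replicate number as a block, edgeR called 0 genes higher, and the log2 ratio of *Lum* to *Dcn* differed by 1.269 between the paired libraries, where 3 pairs cannot give an exact p below 0.25. Libraries that share a number were not paired by the labels or by their deviations (correlations 0.05, 0.07 and 0.34 for numbers 1, 2 and 3), and KO replicate 3 correlated best with its own number, KO replicates 1 and 2 with WT replicates 4 and 1.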

Other observations

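Proteases that process or cleave these proteoglycans stood higher in KO more often than lower. Of 17 listed genes 16 were tested, and 14 were positive, beside 46.9% of all tested genes. The median on the log2 scale was 1.08, beside -0.03 over all tested genes. EdgeR called 0 of them. At an unadjusted p under 0.05, 10 were higher and 1 lower, where 9.92% of all genes were higher and 7.27% lower. DESeq2 called 6 higher and 1 lower, against 5.54% and 2.79% of its genes. The list was chosen with earlier results of these data known, so these counts are a description. *Mmp12*, the macrophage elastase, read 0.439, 1.38, 0.774 and 0.570 CPM in WT and 17.6, 2.97 and 9.41 CPM in KO (edgeR adjusted p = 0.165), and *Adamts4*, an aggrecanase, 3.07, 3.21, 2.55 and 3.20 CPM in WT and 39.5, 5.05 and 26.4 CPM in KO (edgeR adjusted p = 0.165). Both were highest in KO replicate 1 and lowest of the KO libraries in KO replicate 2. The macrophage markers had the same order, and summed to 314 to 548 CPM in WT and 3961, 695 and 1259 CPM in KO. The reverse order was that of *Dcn*, *Fmod* and *Aspn*, so it is not particular to these genes. The part of macrophages in *Mmp12* and *Adamts4* was not tested. *Ctsk*, cathepsin K, read 53.3, 36.4, 42.2 and 53.6 CPM in WT and 65.3, 67.2 and 80.8 CPM in KO (edgeR adjusted p = 0.181), so that its KO libraries lay close together, like those of *Lum*.

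Receptors and growth factors bound by the family showed a median of 0.47 on the log2 scale, and 14 of the 21 were positive. Of all tested genes 46.9% were positive, with a median of -0.03. EdgeR called 0 of the 21. At an unadjusted p under 0.05, 7 were higher and 0 lower, where 9.92% of all genes were higher and 7.27% lower. DESeq2 called 4 higher, against 5.54% of its genes. This list, too, was chosen with earlier results of these data known. *Ccn4*, a matricellular protein that binds decorin and biglycan, averaged 9.86 ± 2.26 CPM in WT and 58.7 ± 40.5 CPM in KO (SD, n = 4 and 3). *Tlr2*, a receptor for soluble biglycan, averaged 8.87 ± 1.82 and 23.3 ± 10.2 CPM, and *Cd14*, its co-receptor, 8.63 ± 3.05 and 38.2 ± 20.3 CPM (edgeR adjusted p between 0.165 and 0.17 for all 3). *Cd14* also stands on the macrophage list, whose part in these values was not tested.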
